A study of Mus musculus with 12 samples.

Results

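The integrated stress response was examined through 10 of its genes, Atf4, Atf5, Ddit3, Trib3, Asns, Phgdh, Psat1, Gdf15, Fgf21 and Chac1, in RNA-Seq of mouse hearts. The genes were taken by symbol from a table of 51826 entries, and all 10 were found. CUG960 mice were homozygous for TREDT960I, a tetracycline-responsive transgene that carries 960 interrupted CTG repeats in human DMPK sequence, and hemizygous for MHCrtTA, in which the α myosin heavy chain promoter drives the reverse tetracycline transactivator in cardiomyocytes. Control mice were hemizygous for MHCrtTA and lacked the repeat transgene. All mice were FvB females aged 10 weeks, and all, controls included, received doxycycline (dox) from postnatal day 1. Atria and ventricles came from the same 6 mice, 3 CUG960 (V119, V120 and V123) and 3 controls (V327, V333 and V334), which gave 12 libraries in 4 groups of 3. The repeat RNA is therefore made in cardiomyocytes, whereas the libraries hold RNA of every cell type of the chamber, and fewer cells of a type cannot be told apart from less RNA per cell.

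In the integrated stress response, kinases that sense unfolded protein, missing amino acids, double-stranded RNA or heme shortage, or that are reached from stressed mitochondria, phosphorylate the translation initiation factor eIF2. General translation slows, whereas the mRNA of the transcription factor ATF4 is translated better because of its upstream reading frames. ATF4, with partners such as CHOP (the product of Ddit3), then raises genes for amino acid synthesis, transport and tRNA charging, and in heart muscle the secreted factors GDF15 and FGF21 are known products of the response to mitochondrial stress. ATF4 and ATF5 are controlled largely at translation, so their mRNA levels report only a part of their activity.

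ATF4 dimers with C/EBP proteins bind a composite element, searched here as TGATGNAA on both strands in the 250 bases before and 50 bases after the start of each gene (RefSeq, GRCm38.p6). The match was present in 4 of the 10 genes, beside 4.51% of all 27025 genes with a window, and in 4 of the 13 windows of these genes, beside 3.97% of all 32851 windows. The genes had been picked as known targets, so their share is a description and not evidence of binding. The 4 matches are shown so that the letters behind the count can be read. Each is given as 24 bases on the gene's strand with the match in capitals, as TGATGNAA or its reverse complement.
Asns, chr6:7693217-7693240, minus strand, match starting 23 bases before the gene: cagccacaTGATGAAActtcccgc
Chac1, chr2:119351041-119351064, plus strand, 193 bases before: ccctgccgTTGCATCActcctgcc
Fgf21, chr7:45615614-45615637, minus strand, 139 bases before: cccccccaTTGCATCAtccgtcca
Trib3, chr2:152344031-152344054, minus strand, from transcript base 15: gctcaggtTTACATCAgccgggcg
The letters were not found in the windows of Atf4, Atf5, Ddit3, Phgdh, Psat1 or Gdf15. The members whose levels differed most between the genotypes, Psat1 and Gdf15, were thus not among the 4 genes printed above. For Psat1 the windows searched (chr19:15924573-15924872 and chr19:15925010-15925309) lie inside the gene span given below. The upstream end of that span, at base 15947337, was not searched.

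Each library held between 116127966 and 160676189 counts. In atria the CUG960 libraries (116127966 to 134863462) were all smaller than the control libraries (136770774 to 149950077), and in ventricles they were all larger (140987828 to 160676189 against 129140369 to 133480610). The markers fixed for the tissue followed the labels. The summed level of 6 atrial cardiomyocyte markers was 21705 to 28888 CPM (counts scaled to library size) in atria and 85.0 to 320.1 CPM in ventricles, and that of 6 ventricular cardiomyocyte markers was 14013 to 17587 CPM in ventricles and 103.7 to 150.5 CPM in atria. The atrial library of control mouse V334 stood apart in immediate early genes. Fos, an early response transcription factor, was at 112.5 CPM there and between 1.56 and 2.92 CPM in the other atrial libraries, and Egr1 was at 131.3 CPM there against 7.88 to 15.4 CPM. Both genes were looked up after the value of Atf3 in this library had been seen. The members that passed a threshold in atria are therefore also given without V334. Of the other genes named below as called in atria, Aldh1l2, Slc7a5, Ret, Fgfr3, Fgfr4, Pecam1 and Tek kept their calls without it, and Hey2 (adjusted p = 0.0984) and Tagln (0.0946) lost them (edgeR).

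Per kilobase of exon, the transcription factor genes were the most abundant members in every group. Atf4 was at 35.1 ± 4.63 CPM per kb in control atria and 40.6 ± 4.11 in control ventricles (SD, n = 3), Atf5 at 25.2 ± 2.29 and 20.3 ± 1.59, and Ddit3 at 12.7 ± 0.951 and 12.7 ± 1.91. These 3 did not overlap in either chamber of the control mice. All other members had group means of at most 2.27 CPM per kb, with exon length taken over all annotated transcripts of a gene. In control atria the order below them was Phgdh (1.82 CPM per kb), Psat1 (1.46), Trib3 (1.19), Asns (0.826), Chac1 (0.798), Gdf15 (0.204) and Fgf21 (0.00459). The ranges of Phgdh and Psat1, of Psat1 and Trib3, and of Asns and Chac1 overlapped. In control ventricles the same genes followed as Chac1, Trib3, Phgdh, Asns, Gdf15, Psat1 and Fgf21, and each neighbor in that order overlapped the next except Psat1 and Fgf21. In CUG960 atria Psat1 (2.27 ± 0.168 CPM per kb) lay above Phgdh (1.25 ± 0.241) with no overlap, the reverse order of the control means. This reversal depends on the division by exon length. In CPM alone Psat1 already lay above Phgdh in control atria (5.46 to 7.54 against 4.31 to 4.73 CPM). In CUG960 ventricles Gdf15 (1.80 ± 0.663) had the highest mean below Ddit3, but it overlapped Trib3.

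**Figure D1:**
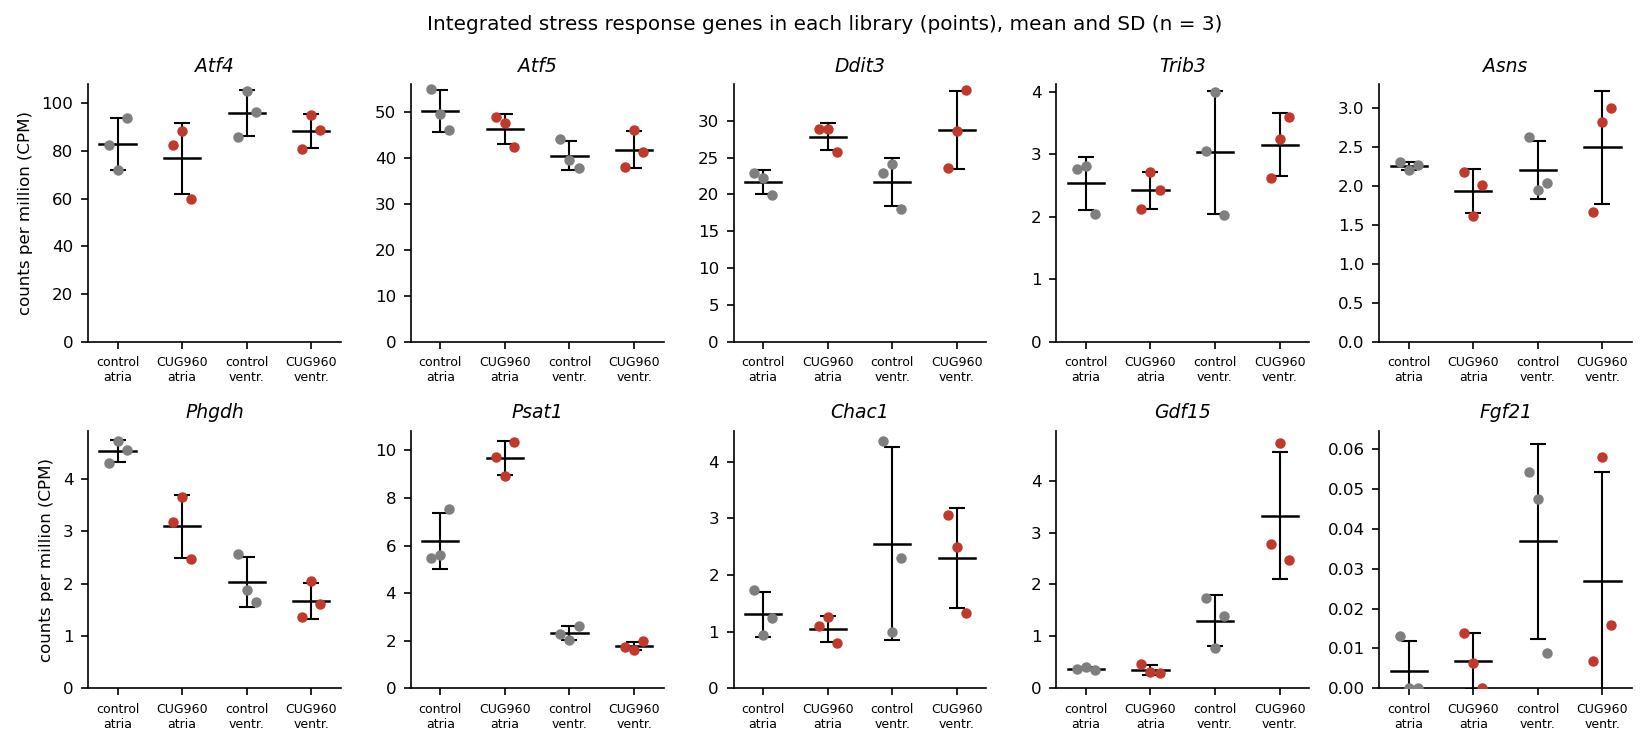
Level of each of the 10 genes in CPM (vertical axis, starting at 0, own scale per panel) in control (gray) and CUG960 (red) atria and ventricles, with points for the 3 libraries of a group and lines for the mean and SD. Psat1 is higher in all CUG960 atria and Gdf15 in all CUG960 ventricles, whereas Atf4, Atf5 and Trib3 overlap between genotypes in both chambers, and Fgf21 stays below 0.06 CPM.

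The question put first was whether expression of the repeat RNA went with a change of these genes in each chamber. In atria Psat1 was called higher in CUG960 mice, and in ventricles Gdf15. No other member was called in either chamber. A call required at least a 1.5-fold change and an adjusted p under 0.05 in the quasi-likelihood test of edgeR (Benjamini-Hochberg, over all genes tested). In atria 1 of the 9 members tested was called, beside 5.49% of all 17650 genes. In ventricles 1 of 9 was called, beside 4.75% of 16909 genes. Without the fold limit 3 of 9 members passed in atria (Ddit3, Phgdh and Psat1), beside 14.6% of all genes, and Gdf15 alone passed in ventricles, beside 9.94%. The genotypes did not overlap for 4 members in atria (Ddit3 and Psat1 above, Asns and Phgdh below), beside 35.7% of all genes, and for 2 in ventricles (Gdf15 above, Psat1 below), beside 31.2%. The median log2 fold change of the members was -0.11 in atria and 0.05 in ventricles, against -0.01 for all genes in either chamber.

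Atf4 (chr15:80255184-80257541, plus strand, GRCm38), the central transcription factor of the response, was at 82.3, 71.9 and 93.8 CPM in control atria and at 82.4, 88.1 and 60.0 CPM in CUG960 atria. In ventricles it was at 85.8, 105.2 and 96.3 CPM in controls and at 80.9, 95.2 and 88.7 CPM in CUG960 mice. The genotypes overlapped in both chambers. The log2 fold change was -0.11 in atria (95% CI -0.45 to 0.24, adjusted p = 0.680) and -0.12 in ventricles (-0.33 to 0.10, adjusted p = 0.488, edgeR).

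Atf5, a related factor that is active in the mitochondrial stress response, ranged from 37.9 to 55.1 CPM over all 12 libraries. Its log2 fold change was -0.12 in atria (95% CI -0.31 to 0.07) and 0.05 in ventricles (-0.16 to 0.26), and its genotypes overlapped in both chambers. It shares 82 exonic bases with Nup62 and Il4i1 on the opposite strand.

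Ddit3 (chr10:127290774-127296288, plus strand) encodes CHOP, a transcription factor that pairs with ATF4 and is linked to cell death under lasting stress. It was at 23.0, 22.3 and 19.9 CPM in control atria and at 28.9, 28.9 and 25.7 CPM in CUG960 atria, so that every CUG960 library lay above every control library. The log2 fold change was 0.36 ± 0.0790 (SE), or 1.28-fold, with an adjusted p of 0.0208 by edgeR, which passed the p threshold and not the fold limit. In ventricles it was at 22.9, 24.1 and 17.97 CPM in controls and at 23.6, 28.6 and 34.1 CPM in CUG960 mice, with overlap and a log2 fold change of 0.41 (95% CI 0.07 to 0.75, adjusted p = 0.123, edgeR). Without 1 mouse the adjusted p in atria ran from 0.0167 to 0.0711, above the threshold without V119, V120, V333 or V334 (0.0690, log2 0.30, for V334). In a single fit of all 12 libraries it was 0.0945. Ddit3 shares 68 exonic bases with Mars, on the opposite strand, and the sources used here do not state whether strand was used in the counting. The annotation holds 2 gene models under the symbol Ddit3, which share 105 exonic bases on the same strand. The counts are labelled by symbol, and the sources used here do not state which of these models they cover.

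Trib3, a pseudokinase that ATF4 and CHOP raise and that restrains both, was at 2.05 to 2.80 CPM in control atria and 2.13 to 2.72 CPM in CUG960 atria. In ventricles it was at 2.03 to 3.999 CPM in controls and 2.61 to 3.60 CPM in CUG960 mice. The groups overlapped, and the log2 fold change was -0.07 in atria (95% CI -0.44 to 0.31) and 0.06 in ventricles (-0.47 to 0.59).

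Asns, which makes asparagine and is one of the most used readouts of ATF4, was at 2.21 to 2.30 CPM in control atria and 1.62 to 2.18 CPM in CUG960 atria. All CUG960 atria lay below all control atria, yet the log2 fold change of -0.22 (95% CI -0.56 to 0.12) had an adjusted p of 0.351 by edgeR. In ventricles the groups overlapped, with a log2 fold change of 0.18 (95% CI -0.34 to 0.70).

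Phgdh (chr3:98313170-98339990, minus strand) and Psat1 (chr19:15904678-15947337, minus strand) encode the first and the second enzyme of serine synthesis from a glycolytic intermediate, and both are ATF4 targets. Their values in atria lay on opposite sides of control. Psat1 was at 5.46, 5.58 and 7.54 CPM in control atria and at 9.71, 8.92 and 10.3 CPM in CUG960 atria, without overlap. It rose 1.56-fold (log2 fold change 0.64 ± 0.138, SE, adjusted p = 0.0197, edgeR, higher in 3 of 3 CUG960 mice than in any control). Phgdh was at 4.31, 4.73 and 4.56 CPM in control atria and at 3.17, 3.65 and 2.46 CPM in CUG960 atria, also without overlap. Its log2 fold change was -0.55 ± 0.151, or 1.46-fold lower. The adjusted p of 0.0450 by edgeR passed the p threshold, but the change did not reach the fold limit.

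The atrial call of Psat1 depended on which mice were included. Without V334, the control mouse whose atrial library stood apart and held the highest control value, the log2 fold change was 0.81 (adjusted p = 0.00576, edgeR). The call was lost without V119 (0.64, adjusted p = 0.0702), V123 (0.58, 0.0544), V327 (0.55, 0.0612) or V333 (0.57, 0.0722), with the direction kept in each. Phgdh was called once, without V120 (log2 fold change -0.69, adjusted p = 0.0373), and in the other 5 fits without 1 mouse its adjusted p was 0.0628 to 0.131 (0.0998 without V334). In a single fit of all 12 libraries it was 0.0796. The annotation holds 19 copies of Phgdh with at least 90% identity, of which 14 were listed in the table with at most 7 counts, beside 184 to 824 counts of Phgdh.

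In ventricles Psat1 was at 2.29, 2.02 and 2.62 CPM in controls and at 1.76, 1.62 and 1.97 CPM in CUG960 mice. Here all CUG960 values lay below all control values, with a log2 fold change of -0.37 (95% CI -0.74 to -0.0026) that did not pass (adjusted p = 0.192, edgeR). Phgdh was at 2.56, 1.88 and 1.64 CPM in control ventricles and at 1.36, 2.04 and 1.61 CPM in CUG960 ventricles, which overlapped (log2 fold change -0.28, 95% CI -0.77 to 0.22).

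Chac1, an enzyme that breaks down glutathione and is raised by ATF4, varied widely within the ventricular groups. In control ventricles it was at 4.36, 0.988 and 2.29 CPM and in CUG960 ventricles at 3.06, 2.50 and 1.34 CPM. In atria it was at 0.942 to 1.73 CPM in controls and 0.802 to 1.25 CPM in CUG960 mice. The genotypes overlapped in both chambers, and the intervals of the log2 fold change were wide (atria -0.31, 95% CI -0.91 to 0.29, ventricles -0.15, 95% CI -1.19 to 0.89).

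Gdf15 (chr8:70629393-70632456, minus strand) encodes a secreted stress factor that signals to the brainstem through GFRAL and RET. It was at 1.74, 0.769 and 1.39 CPM in control ventricles (192, 81 and 156 counts) and at 2.78, 4.73 and 2.46 CPM in CUG960 ventricles (406, 653 and 308 counts). All 3 CUG960 ventricles lay above all control ventricles, the highest in mouse V120. Gdf15 rose 2.56-fold there (log2 fold change 1.36 ± 0.322, SE, adjusted p = 0.0299, edgeR). In atria it was at 0.367, 0.408 and 0.357 CPM in controls and at 0.461, 0.315 and 0.294 CPM in CUG960 mice, with overlap and a log2 fold change of -0.08 (95% CI -0.67 to 0.51). The share of counts from mitochondrially encoded transcripts was 20.5%, 19.6% and 20.5% in control ventricles and 18.4%, 15.3% and 17.3% in CUG960 ventricles, without overlap and lowest in the library of V120. With these transcripts removed from the table the log2 fold change of Gdf15 was 1.36 (adjusted p = 0.0304, edgeR). The ventricular call was lost without V120 (log2 fold change 1.02, adjusted p = 0.105), V333 (1.09, 0.0622) or V334 (1.41, 0.0626).

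Fgf21, a hormone better known from liver that heart muscle can release under mitochondrial stress, was close to the limit of detection. Its counts were 2, 0 and 0 in control atria, 2, 1 and 0 in CUG960 atria, 6, 5 and 1 in control ventricles, and 1, 8 and 2 in CUG960 ventricles. A floor of 3 counts corresponds to 0.0172 to 0.0285 CPM in these libraries. It did not pass the filter on low counts and so has no test in the comparisons reported. With no filter its adjusted p was 0.867 in atria and 0.859 in ventricles (edgeR), and a difference between genotypes was not detectable at these counts.

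**Figure D2:**
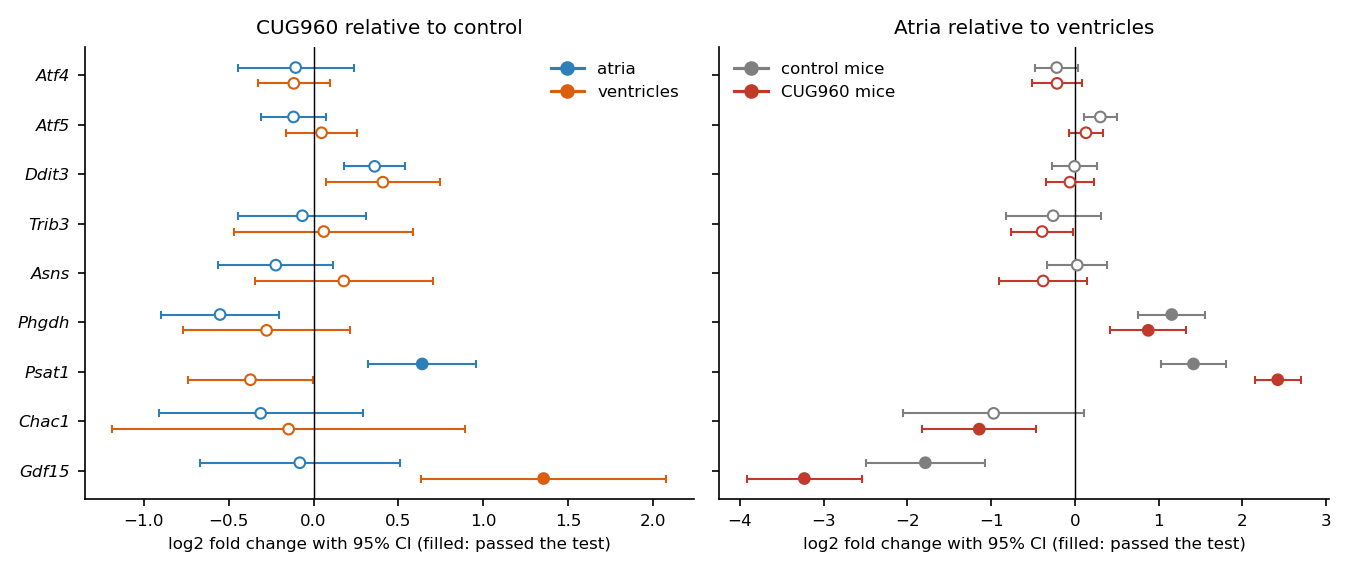
Log2 fold change with its 95% CI (horizontal axis) of the 9 members tested, for CUG960 relative to control in atria (blue) and ventricles (orange) on the left and for atria relative to ventricles in control (gray) and CUG960 (red) mice on the right. Filled points passed the adjusted p and the fold limit, which on the left are only Psat1 in atria (0.64) and Gdf15 in ventricles (1.36).

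The next comparison asked how the members differed between the chambers of the same hearts. In control mice 3 of 9 members were called, beside 34.9% of all 17451 genes, and in CUG960 mice 4 of 9, beside 33.6% of 17559 genes. Phgdh and Psat1 were higher in atria and Gdf15 in ventricles. In control mice Phgdh was 2.23-fold higher in atria (log2 1.16, adjusted p = 0.000629), Psat1 2.67-fold higher (log2 1.42, adjusted p = 0.000158) and Gdf15 3.45-fold lower (log2 -1.79, adjusted p = 0.00139, edgeR). In CUG960 mice the log2 difference was 0.88 for Phgdh, 2.42 for Psat1 and -3.23 for Gdf15. Psat1 was thus 5.36-fold higher in CUG960 atria than in CUG960 ventricles, and Gdf15 9.39-fold lower. Chac1 was called in CUG960 mice (log2 -1.14, adjusted p = 0.0106) and not in controls (log2 -0.97, adjusted p = 0.113, edgeR). With the mouse as a replicate block it was called in controls too (log2 -0.79, adjusted p = 0.0230), as it was without V333 (log2 -1.16, adjusted p = 0.0350). In CUG960 mice the call of Chac1 was lost without V119 (log2 -0.91, adjusted p = 0.0780) or V120 (log2 -1.21, adjusted p = 0.0524), and that of Phgdh without V119 (log2 0.73, adjusted p = 0.0502), where Asns was called lower in atria (log2 -0.70, adjusted p = 0.0273). Both chamber comparisons use the same 6 mice as the comparisons of genotype. Their adjusted p come from fits that did not pair the chambers by mouse, except where the block is named.

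The difference of the genotype effect between chambers was tested as an interaction. Psat1 passed. Its log2 fold change in ventricles minus that in atria was -1.02 ± 0.205 (SE, 95% CI -1.46 to -0.57, adjusted p = 0.0321, edgeR), the 1 call among 9 members beside 1.38% of all 18327 genes. With the mouse as a block the adjusted p was 0.0114. Without V334 it was 0.0225, and without V119, V120, V123, V327 or V333 it lay between 0.0878 and 0.143, with the difference between -1.07 and -0.94 in all 6 fits. For Gdf15 the difference of 1.44 (95% CI 0.46 to 2.41) did not pass (adjusted p = 0.181, edgeR), although DESeq2 gave an adjusted p of 0.0439. The change of Gdf15 in ventricles is therefore not shown by edgeR to differ from that in atria. For the other 7 members tested the difference lay between -0.01 and 0.40, and none passed.

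Psat1 and Phgdh stand at the head of a path that continues through Psph (the last step to serine), Shmt2 (which passes the serine carbon to folate in mitochondria), Mthfd2 and Aldh1l2 (which oxidize the folate-bound carbon there). Aldh1l2 rose 2.33-fold in CUG960 atria, from 33.0, 32.6 and 36.2 CPM to 84.3, 73.6 and 79.2 CPM (log2 1.22 ± 0.0737, adjusted p = 7.26e-05, edgeR), a call kept in all 6 fits without 1 mouse. In ventricles its log2 fold change was 0.55 (adjusted p = 0.0826). Mthfd2 rose 1.93-fold in CUG960 ventricles, from 2.77, 2.41 and 2.47 CPM to 3.55, 6.25 and 4.96 CPM (log2 0.95 ± 0.197, adjusted p = 0.0182, edgeR). This call was lost without V120 (0.74, adjusted p = 0.0593) or V333 (0.91, 0.0529). In atria its CUG960 values (1.94 to 2.71 CPM) lay below the control values (2.78 to 3.31 CPM) with a log2 fold change of -0.43 that did not pass (adjusted p = 0.108). Psph and Shmt2, named here after their values were seen, had log2 fold changes of -0.24 and 0.13 in atria and -0.18 and 0.14 in ventricles, none of which passed. Of the 12 other enzymes of serine, folate and amino acid synthesis, all tested, 1 was called in each chamber, with a median log2 fold change of 0.07 in atria and 0.19 in ventricles.

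**Figure D3:**
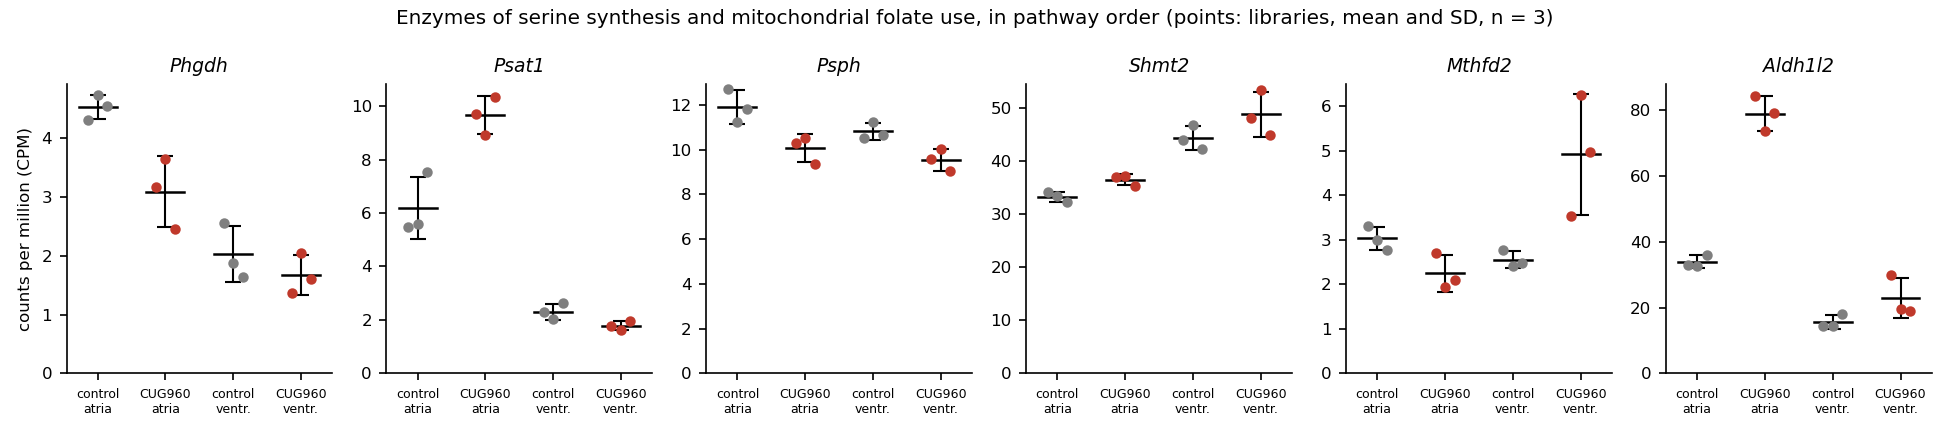
Levels in CPM (vertical axes, starting at 0) of 6 enzymes in the order of the path from serine synthesis to mitochondrial folate, by library (points) with mean and SD (n = 3), control in gray and CUG960 in red. Psat1 and Aldh1l2 are higher in CUG960 atria and Mthfd2 in CUG960 ventricles, whereas Phgdh is lower in CUG960 atria.

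Other targets of ATF4 in signalling and feedback gave 2 calls among 8 genes tested, both in ventricles. Sesn2 encodes a leucine sensor that restrains mTORC1. It rose 1.65-fold in CUG960 ventricles, from 5.02, 4.83 and 4.86 CPM to 7.35, 9.20 and 7.75 CPM (log2 0.72 ± 0.116, adjusted p = 0.00561, edgeR), in all 6 fits without 1 mouse. Eif4ebp1, a repressor of cap-dependent translation that mTORC1 inactivates, rose 1.55-fold in ventricles, from 49.5 to 55.5 CPM in controls to 72.4 to 91.5 CPM (log2 0.63 ± 0.100, adjusted p = 0.00547). Without V120 its change in ventricles stayed under the fold limit (log2 0.52, adjusted p = 0.0147). In atria Eif4ebp1 did not overlap either, with 47.7 to 51.3 CPM in controls and 65.4 to 76.7 CPM in CUG960 mice, and its log2 fold change of 0.54 (adjusted p = 0.00280) stayed under the fold limit. Without the fold limit 3 of the 8 passed in atria, all upward, beside 14.6% of all genes. In ventricles 3 passed, 2 upward and 1 downward, beside 9.94%. The list summed to 511.6 to 555.4 CPM in control atria and 618.7 to 632.1 CPM in CUG960 atria, without overlap. In ventricles the sums overlapped (637.1 to 750.5 and 675.4 to 695.3 CPM). The median of the list was 0.17 in atria and 0.15 in ventricles.

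Amino acid transporters of the response had 1 call in each chamber among 8 tested of 9, both downward. Slc7a5, the light chain of the main carrier of large neutral amino acids, fell 1.82-fold in CUG960 atria, from 31.4, 35.2 and 32.0 CPM to 14.8, 19.3 and 19.9 CPM (log2 -0.87 ± 0.112, adjusted p = 0.00259, edgeR). Slc7a1, a carrier of cationic amino acids, fell 1.52-fold in ventricles (log2 -0.60 ± 0.148, adjusted p = 0.0335), a call that only the fit without V119 kept. The median of the list was -0.26 in atria and -0.15 in ventricles.

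The receptors of GDF15 and FGF21 held the remaining calls. Of the 7 listed, 3 of 6 tested were called in atria and 1 of 5 in ventricles, beside 5.49% and 4.75% of all genes. Whether GDF15 is received in the heart was not tested. Ret, the signalling subunit of the GDF15 receptor in the brainstem, fell in both chambers, 2.33-fold in atria (from 1.19, 0.867 and 0.874 CPM to 0.461, 0.412 and 0.382 CPM, adjusted p = 0.00844) and 1.77-fold in ventricles (from 5.33, 5.45 and 4.07 CPM to 2.901, 2.75 and 2.72 CPM, adjusted p = 0.00850, edgeR), and in all 6 fits without 1 mouse in each chamber. Fgfr4, a receptor of the FGF19 group of hormones, rose 3.49-fold in atria, from 1.296, 1.06 and 0.721 CPM to 3.56, 3.43 and 3.75 CPM (log2 1.80 ± 0.207, adjusted p = 0.00154). Fgfr3 fell in atria (log2 -0.80, adjusted p = 0.0419), but only the fit without V334 kept this call, and it was lost with all 12 libraries in a single fit (adjusted p = 0.0641).

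The upstream part of the response and the neighboring stress programs had no calls. Of 18 genes for the eIF2 kinases, eIF2, eIF2B and the eIF2 phosphatase, 16 were tested, with a median log2 fold change of 0.03 in atria and 0.01 in ventricles. Their most abundant members, Eif2s3x and Eif2s2, encode subunits of eIF2 and had log2 fold changes of -0.03 and 0.09 in atria and -0.03 and -0.07 in ventricles. The 7 other stress transcription factors had medians of -0.12 and -0.18, and their most abundant members were Atf6 (-0.12 in atria, -0.28 in ventricles) and Xbp1 (-0.31, adjusted p = 0.0152, in atria, short of the fold limit, and -0.18 in ventricles). The 21 genes for cytosolic aminoacyl-tRNA synthetases and tRNA export had medians of 0.03 in both chambers, with Eprs at 0.10 and Kars at 0.12 in atria and -0.01 and 0.17 in ventricles. The 17 targets of ATF6 and XBP1 in the endoplasmic reticulum had medians of -0.05 and -0.04, with the chaperones Hspa5 at -0.07 and Hsp90b1 at -0.03 in atria and -0.15 and -0.04 in ventricles. The 11 mitochondrial chaperones and proteases had medians of -0.04 and -0.06, with Hspa9 at -0.14 and Hspd1 at 0.01 in atria and -0.29 and -0.04 in ventricles. Hspa9 did not overlap in ventricles (903.6 to 960.7 CPM in controls and 721.0 to 792.8 CPM in CUG960 mice, adjusted p = 0.0519, edgeR), nor did the sum of the list (2576 to 2775 CPM and 2409 to 2554 CPM). Over the 9 lists together, 5 of 106 genes tested were called in atria and 5 of 105 in ventricles, beside the shares of all genes given above.

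**Figure D4:**
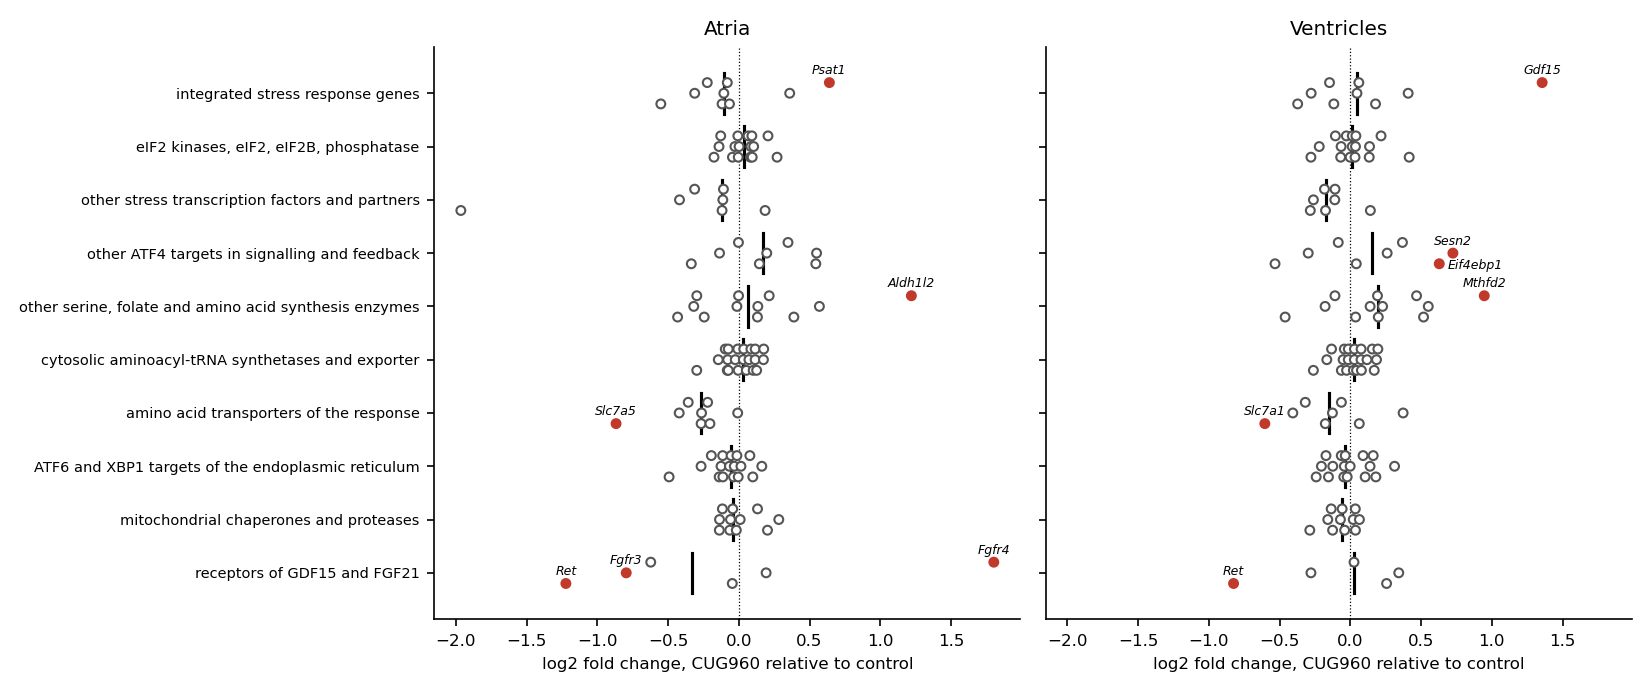
Log2 fold change (horizontal axis, CUG960 relative to control) of every tested gene of the 10 stress response genes and of 9 related lists in atria and ventricles, with called genes filled and named and a bar at the median of each list. The eIF2, tRNA synthetase, endoplasmic reticulum and mitochondrial lists hold no called gene and have medians between -0.06 and 0.03, and the other stress transcription factors hold none with medians of -0.12 and -0.18.

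Markers of other cell types moved with genotype in both chambers. The summed level of 6 endothelial markers was 565.2 to 680.0 CPM in control atria and 434.2 to 486.7 CPM in CUG960 atria, and 700.4 to 852.3 CPM against 551.0 to 601.1 CPM in ventricles, without overlap. Pecam1 and Tek fell past the fold limit in atria (log2 -0.71 and -0.62), 2 of 6, and none of the 6 did in ventricles. Tek stayed under the fold limit without V119 (-0.56), V327 (-0.57) or V333 (-0.55). The 5 adipocyte markers summed to 5.87 to 7.56 CPM in control ventricles and 0.964 to 3.60 CPM in CUG960 ventricles, where Plin1 (log2 -1.86) and Cfd (log2 -1.92, the most abundant in 5 of the 6 ventricular libraries) were called. The 6 cardiomyocyte markers summed to 40231 to 41497 CPM in control atria and 42338 to 44008 CPM in CUG960 atria, and to 47546 to 50176 CPM against 48906 to 52636 CPM in ventricles, where they overlapped. The atrial sum was higher through Myh6, its most abundant gene, named for that (25278 to 25947 CPM in controls and 29449 to 30434 CPM in CUG960 mice), whereas the other 5 had negative log2 fold changes and the median of the list was -0.17. No endothelial or adipocyte marker was at 0 counts in any library. None of the 7 fibroblast or 6 macrophage and leukocyte markers was called in either chamber. All 7 fibroblast markers nevertheless had negative log2 fold changes in atria (median -0.29), 2 of them with an adjusted p under 0.05 (Pdgfra, -0.47, and Col1a2, -0.37, edgeR, both named for these values), and they summed to 2172 to 2545 CPM in controls and 1839 to 2174 CPM in CUG960 atria. Single markers of the remaining lists were called, among them Hey2 (log2 -0.67) and Tagln (1.21) in atria, and Ryr2 (-0.67), Nppa (1.301), Bmp10 (-4.06), Myh11 (-0.65) and Tagln (-0.63) in ventricles. Most of these calls depended on single mice. In atria the call of Hey2 was lost without any mouse but V123 (log2 -0.72 to -0.49) and with RLE factors, and that of Tagln without V119, V123, V333 or V334 (0.88 to 1.26). In ventricles the call of Ryr2 was lost without V120, V327 or V334 (-0.63 to -0.56), that of Nppa without V120, V123, V327 or V333 (0.93 to 1.31), that of Myh11 without any mouse but V333 (-0.71 to -0.53) and that of Tagln without V119, V123, V327 or V334 (-0.61 to -0.48). The ventricular calls of Plin1, Myh11 and Tagln were also lost in a single fit of all 12 libraries. The part of these shifts in the values of Psat1, Gdf15 or the other genes was not tested. Atrial markers summed to 85.0 to 161.7 CPM in control ventricles and 97.4 to 320.1 CPM in CUG960 ventricles, which overlapped.

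The genes most like the called members were sought by Pearson's r of log2(CPM + 0.5) over the 12 libraries, after the mean of each chamber was subtracted, among the 13112 genes whose mean level reached 1 CPM. The libraries share mice, depth and the genotype contrast, so r is a description. For Psat1 these included Stom (r = 0.95, an integral membrane protein) and Sema5a (0.92, a guidance factor). For Gdf15 they were Evc2 (0.97, a ciliary protein), Pcif1 (0.95, an mRNA cap methyltransferase) and Edn3 (0.94, an endothelin). Of these 5 genes, Edn3 was called, in ventricles (log2 1.35, adjusted p = 0.0201, edgeR). No other member of the 10 was among them.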

How the data were processed

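Per the labels and the study's methods, stranded poly(A) libraries were aligned to GRCm38 (mm10), and the authors deposited RSEM (version 1.3.1) expected counts per gene symbol, all whole numbers here, without normalization. The 92 entries that repeat a symbol were kept apart. The members and gene lists were chosen with earlier results of these data known. With R 4.3.3, edgeR 4.0.16 was run (filterByExpr, TMM factors, quasi-likelihood test, Benjamini-Hochberg adjustment) on the 6 libraries of each comparison, or all 12 for the interaction, which required the adjusted p alone. Levels are CPM with TMM factors over 12 libraries, and gene coordinates and exon lengths come from GENCODE M21. The scripts were tested on simulated data. DESeq2 1.42.0, RLE and upper-quartile factors, other filters and fold limits, removal of mitochondrial transcripts or of each mouse, a single fit and a block by mouse were the alternatives. Named genes were the members, every list gene called in a chamber (otherwise the 2 most abundant of the list) and the 3 genes most like each called member, and genes outside this rule are said to be so. A few genes that the rule names are not reported here. Each mouse is 1 replicate. Atria and ventricles came from the same animals, so the mouse pairs the chambers (correlation of deviations 0.0470 to 0.284 within mice and -0.343 to 0.130 between mice).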

Additional observations from a re-analysis of the deposited data

Results flagged for a closer look

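The genotype effect differed between chambers for 7 of the 165 tested genes of the members and lists by the interaction test of edgeR (adjusted p over 18327 genes), beside 1.38% of all genes. Psat1 had an adjusted p of 0.0321, and its log2 fold change was 0.64 in atria but -0.37 in ventricles. Mthfd2 had 0.0293 (-0.43 and 0.95), but 0.0542 with the mouse as a replicate block, and the call was lost in 5 of the 6 fits without 1 mouse. Gpt2, a transaminase that links alanine and glutamate, had 0.00802 (0.21 and -0.46), and was lost only without V333 (0.0622). Herpud1, which takes part in the clearance of misfolded protein from the endoplasmic reticulum, had 0.0301 (-0.0023 and -0.53), and was lost in each of the 6 fits without 1 mouse (adjusted p 0.0742 to 0.141). Gpt2 and Herpud1 are named after their values were seen. Among the cell type markers, Nppa had 0.0494 (-0.42 and 1.301), Bmp10 0.00208 (0.03 and -4.06) and Tagln 0.0445 (1.21 and -0.63). The call of Nppa was lost with RLE factors (0.0503) and without V120, V123, V327 or V333 (0.154 to 0.239), and that of Tagln without V119, V123, V333 or V334 (0.131 to 0.169).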

How the results depend on the processing

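Among the 549 log2 fold changes recomputed for the 9 members tested, 502 kept their direction and their side of the threshold, 15 lost a call, 5 gained one and 27 changed sign. None of those 27 had passed in the comparison as reported. With a log2 fold change limit of 1.5 the calls were 216 genes in atria, 199 in ventricles, 2233 between chambers of control mice and 2200 between chambers of CUG960 mice, with 0, 0, 1 and 2 members. With no fold limit they were 2573, 1680, 9726 and 9517 genes, with 3 members in atria. DESeq2 called 660 genes in the interaction, with 2 members (Psat1 and Gdf15), against 253 and 1 by edgeR. Without 1 mouse the interaction gave 74 to 131 genes and 0 to 1 members, and the genotype comparison 0 to 2 members in atria and 0 to 1 in ventricles. With the mouse as a replicate block the count of the interaction stayed within 1.5 times that reported, the chamber comparisons gave 6113 and 5899 genes, and the block changed the call of no other member than Chac1 and, of the 7 interaction calls described above, only that of Mthfd2. Without 1 mouse the range was -0.22 to 0.039 for Atf4, -0.20 to 0.019 for Trib3 and -0.31 to 0.033 for Gdf15 in atria, -0.028 to 0.11 for Atf5, -0.16 to 0.31 for Trib3 and -0.53 to 0.49 for Chac1 in ventricles, and -0.17 to 0.16 for Atf4, -0.15 to 0.19 for Ddit3 and -0.071 to 0.54 for Chac1 in the interaction. Between chambers it was -0.063 to 0.063 for Ddit3 and -0.036 to 0.16 for Asns in control mice and -0.21 to 0.14 for Ddit3 in CUG960 mice. With the block the interaction of Atf4 was 0.00018. The chamber difference of Ddit3 in control mice, reported as -0.0044, was 0.026 with upper-quartile factors, 0.012 with no filter on low counts, 0.012 with at least 10 counts in every library, 0.0011 in a single fit of 12 libraries and 0.0041 with the block. The cause was not tested. Fgf21, which had at most 8 counts in a library of 116127966 to 160676189 counts, did not pass the filter on low counts.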

Other observations

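The ratio of Psat1 to Phgdh, both per kilobase of exon, was computed after their values were seen. It was 0.740, 0.689 and 0.966 in control atria and 1.79, 1.43 and 2.45 in CUG960 atria, a log2 difference of 1.22. Since Psat1 lay above and Phgdh below all controls there, the ratio could not overlap. In ventricles it was 0.522, 0.629 and 0.934 in controls and 0.752, 0.464 and 0.718 in CUG960 mice, which overlapped.

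Atf3, a stress-inducible transcription factor of the same family that was named after its values were seen, varied widely among atria. It was at 47.9, 29.9 and 352.0 CPM in control atria and at 29.8, 76.7 and 3.76 CPM in CUG960 atria, the highest value in the library of V334 that was also high in Fos and Egr1. In ventricles it stayed between 3.92 and 6.76 CPM. Its log2 fold change in atria of -1.96 (95% CI -4.53 to 0.60) did not pass (adjusted p = 0.279, edgeR), and ran from -3.10 to -0.08 without 1 mouse.

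The letters TGATGNAA were present in the start windows of 16 of 84 other genes of the related lists with a window, against 4.51% of all 27025 genes. These lists were chosen for their link to the response, so this share too is a description and not evidence of binding. Sesn2, Mthfd2 and Slc7a1 held no match. They were the related genes, receptors aside, that were called between genotypes within a chamber and had a window searched. Of the related genes called in the interaction, Herpud1 held a match, and Gpt2 and Mthfd2 held none. The window of Mthfd2 (chr6:83317555-83317854) lies inside its annotated gene span (chr6:83305691-83325908, minus strand), whose upstream end was not searched.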
